A study of Homo sapiens with 16 samples.

Results

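The alpha- and beta-tubulin isotype genes encode the 2 subunits of the microtubule, and 10 of them were followed here in HEK293T, a transformed line derived from human embryonic kidney that also expresses a viral T antigen. They were 4 alpha genes (TUBA1A, TUBA1B, TUBA1C and TUBA4A) and 6 beta genes (TUBB, TUBB2A, TUBB2B, TUBB3, TUBB4A and TUBB4B), taken by symbol from the 57500 genes of the count files. The family was chosen by its measured values, because TUBB4A was lower with pinometostat and TUBB3 higher with JQ1 in these same libraries. Values of the 10 genes in those 2 comparisons are therefore given as a description with no test, and only the comparison of E92K with H2A cells is tested for them. All 10 genes passed the filter on low counts.

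RNA was sequenced from 16 samples in 4 groups of 4. The first group held a lentiviral vector for H2A(E92K), a mutant with lysine in place of a glutamate in the acidic patch of the nucleosome, and received DMSO. The other groups held a vector for unmutated H2A and received 1 µM JQ1 for 3 h, 2.5 µM pinometostat for 24 h, or DMSO. JQ1 blocks the bromodomains with which BET proteins read acetylated histones. Pinometostat is an inhibitor of DOT1L, a histone H3 methyltransferase. All 3 comparisons were made against the same 4 H2A libraries with DMSO. The labels list no time with DMSO, so time in culture or handling cannot be told apart from the compounds, and every group carried a vector. The labels do not state that the samples of a group came from separate cultures, so p-values reflect only how far these samples vary, a variation that could be technical.

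Alpha- and beta-tubulin pair into a dimer that polymerises head to tail into microtubules. Vertebrates express several isotypes of each subunit, which are nearly alike in the globular body and differ most in the acidic tail at the carboxy terminus, where motors and modifying enzymes act. Cells also hold tubulin mRNA in check: when free dimer is in excess, TTC5 binds the first residues of a tubulin chain as it leaves the ribosome, and SCAPER then brings in the CCR4-NOT deadenylase, which degrades that mRNA. TUBB, TUBA1B, TUBA1C and TUBB4B are the isotypes of most dividing cells. TUBB3 and TUBB4A are best known from neurons, and TUBB2A, TUBB2B and TUBA1A are abundant in the developing brain.

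The coding ends of the 6 beta mRNAs are printed because they hold the letters that set the isotypes apart. They are the last 60 coding bases before the stop codon, 5′ to 3′, from the GENCODE release 29 transcripts. The capitals mark positions at which the 6 aligned sequences are not all alike.
TUBB: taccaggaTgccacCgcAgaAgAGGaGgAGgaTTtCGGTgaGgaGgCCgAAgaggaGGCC
TUBB2A: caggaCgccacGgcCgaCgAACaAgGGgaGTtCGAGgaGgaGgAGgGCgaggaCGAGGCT
TUBB2B: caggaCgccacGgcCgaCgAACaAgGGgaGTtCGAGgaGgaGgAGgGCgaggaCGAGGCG
TUBB3: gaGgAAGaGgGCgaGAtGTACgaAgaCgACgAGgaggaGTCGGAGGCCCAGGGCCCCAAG
TUBB4A: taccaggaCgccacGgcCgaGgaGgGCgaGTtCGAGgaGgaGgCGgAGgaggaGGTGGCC
TUBB4B: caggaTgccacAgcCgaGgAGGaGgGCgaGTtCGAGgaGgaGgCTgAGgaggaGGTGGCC
TUBB2A and TUBB2B differed in the last base of this window and were 98.2% identical over their coding sequences, while TUBB3 ran on into a tail of its own. TUBB was the most distant beta gene, 81.6% to 84.5% identical to the others. Among the alpha genes TUBA1A and TUBA1B were 97.2% identical, and TUBA4A was 84.4% to 85.7% identical to the other 3. The sources used here do not give how reads that match more than 1 copy were counted, so the split between TUBA1A, TUBA1B and TUBA1C, and between TUBB2A and TUBB2B, is uncertain.

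The first 12 coding bases are shown because they encode the residues that TTC5 reads. They were atgcgtgagtgc in TUBA1A, TUBA1B and TUBA1C, and atgcgtgaatgc in TUBA4A. In the beta genes they were atgagggaaatc in TUBB and TUBB4B, atgagggagatc in TUBB3, atgcgcgagatc in TUBB2A, atgcgtgagatc in TUBB2B and atgcgggagatc in TUBB4A.

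The genes lie on 6 chromosomes (GRCh38 coordinates of the files). TUBA1B (chr12:49127782-49131397, minus strand), TUBA1A (chr12:49184796-49189324, minus strand) and TUBA1C (chr12:49188736-49274603, plus strand) stand in a cluster on chromosome 12. TUBA4A is at chr2:219249711-219278170 on the minus strand. On chromosome 6, TUBB2A (chr6:3153669-3157526, minus strand) and TUBB2B (chr6:3224261-3231730, minus strand) are neighbours, and TUBB (chr6:30720201-30725426, plus strand) lies apart. TUBB3 is at chr16:89921392-89938761 on the plus strand, TUBB4A at chr19:6494319-6502848 on the minus strand and TUBB4B at chr9:137241213-137243707 on the plus strand. TUBA1A and TUBA1C share 490 exonic bases on opposite strands, and no strand setting of the counting is given in the sources used here.

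TUBB3 needs a caution before its values. A read-through gene on the same strand, AC092143.1, shares 1584 of the 4430 exonic bases of TUBB3, and it covers 1293 of the 1350 coding bases (95.8%) of the main TUBB3 transcript. AC092143.1 itself was listed with 0 or 1 count in each library, and TUBB3 with 12 to 59. The sources used here do not give how reads in both genes were counted. The level of TUBB3 therefore cannot be set against the other isotypes as a level of the whole mRNA.

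Library depth ran from 17779692 to 27599686 counts. Libraries of 2 groups stood apart. JQ1 replicate 1 had 16.5% of its counts in mitochondrial genes, while the remaining JQ1 libraries had 3.04% to 3.69% and those with DMSO 3.66% to 4.02%. E92K replicate 4 had 7.45%, against 3.77% to 4.95% in the other E92K libraries. Several results that rest on these libraries are given with and without them. Kidney developmental markers were present, with a summed 42.6 to 72.9 TPM (a level per transcript length, scaled to the same sum in each library) with JQ1, and 121 to 149.6 TPM in the H2A libraries with DMSO. Of 7 blood and endothelial markers, 2 to 5 were at 0 in each library, and their sum ran from 3.05 to 5.87 TPM.

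Per length, TUBB was the most abundant isotype mRNA in the H2A libraries with DMSO, at 1203 ± 122 TPM (SD, n = 4, as for the other levels), and TUBA1B followed at 827 ± 44.6 TPM. TUBB4B had 470.3 ± 65.0 TPM. TUBB2B, at 193 ± 18.0 TPM, and TUBA1C, at 192 ± 5.93 TPM, did not differ beyond their spread. TUBA1A followed at 157 ± 8.46 TPM. TUBB4A, at 61.6 ± 12.8 TPM, and TUBB2A, at 47.9 ± 3.40 TPM, overlapped again. TUBA4A had 11.4 ± 0.979 TPM, and TUBB3 was listed at 0.808 ± 0.138 TPM. The other neighbours in this order did not overlap between libraries. The order changed in places with treatment. With pinometostat TUBB2A stood above TUBB4A, at 34.4 ± 2.62 and 31.1 ± 5.02 TPM, with overlapping libraries, and with JQ1 the libraries of TUBA1B overlapped those of TUBB and of TUBB4B. Those overlaps came from JQ1 replicate 1, where TUBB was at 793 TPM and TUBA1B at 288 TPM. In JQ1 replicates 2 to 4 TUBB had 1217 to 1394 TPM, TUBA1B 866 to 1001 TPM and TUBB4B 679 to 733 TPM, with no overlap.

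Between groups, levels are given as CPM, counts brought to a common library size and scaled by TMM, a factor per library that centres the bulk of genes. In bulk samples, fewer cells that express a gene and less RNA per cell cannot be told apart.

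**Figure D1:**
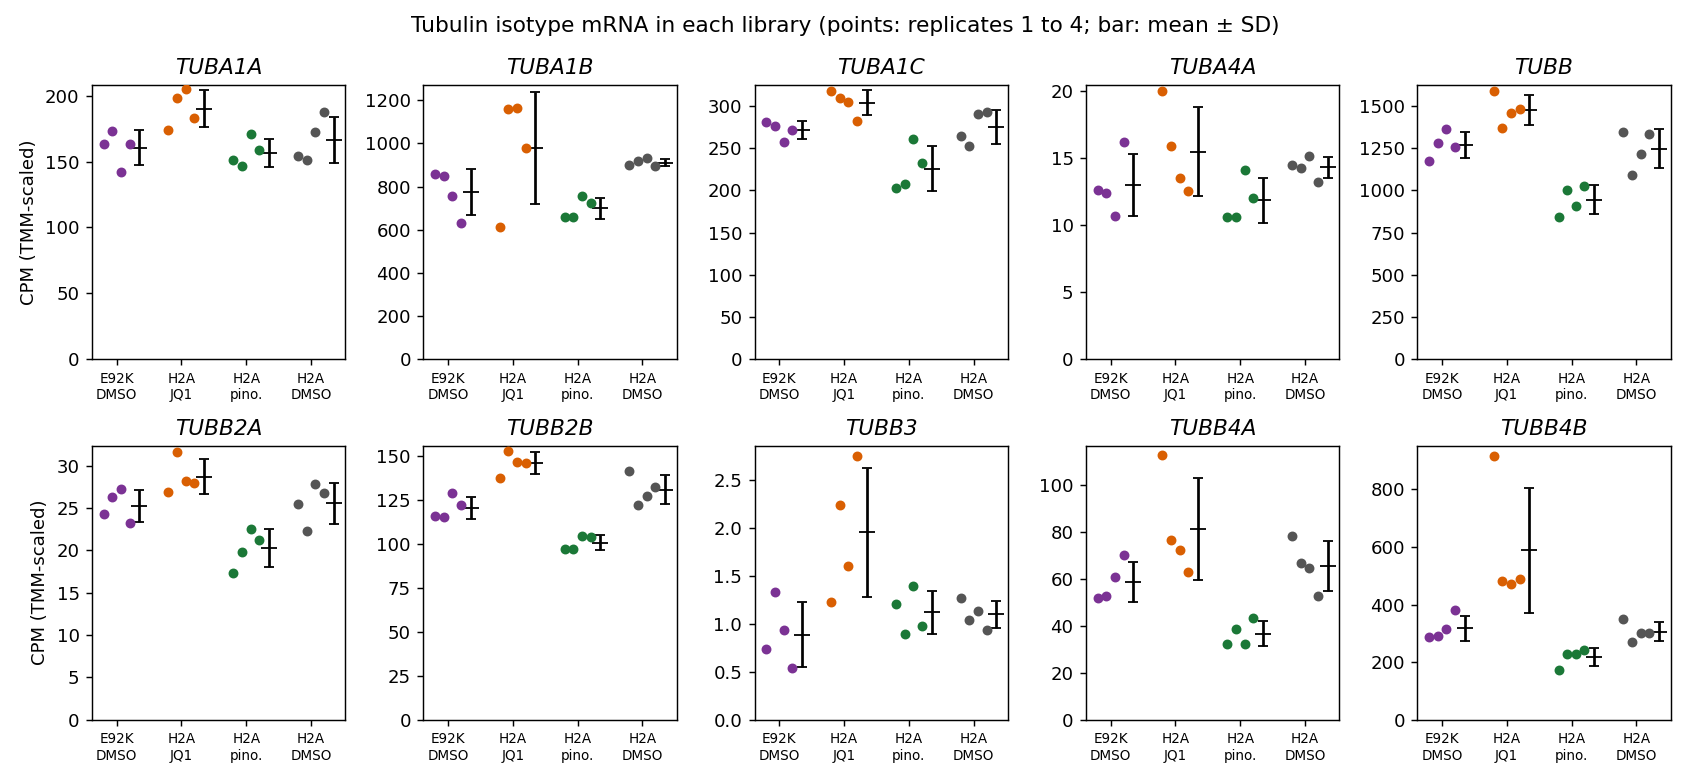
TMM-scaled CPM (y axis, linear, from 0) of the 10 tubulin genes in each library, with E92K DMSO, H2A JQ1, H2A pinometostat and H2A DMSO from left to right; points are replicates 1 to 4 and bars the mean ± SD. TUBB4A and TUBB4B were lower with pinometostat, and TUBB4B in JQ1 replicate 1 stood at 915 CPM, far above the other 3 JQ1 libraries.

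TUBB4A, the beta isotype of oligodendrocytes and neurons, was the member furthest below its control with pinometostat. It had 51.7, 52.6, 60.6 and 70.1 CPM in the E92K libraries, 113, 76.4, 72.2 and 63.0 CPM with JQ1, and 32.3, 38.5, 32.3 and 43.3 CPM with pinometostat, against 78.1, 66.6, 64.6 and 52.5 CPM in H2A with DMSO. All 4 pinometostat libraries lay below all 4 DMSO libraries, while the E92K and JQ1 libraries overlapped them. The log2 fold change with pinometostat was −0.84 ± 0.17 (SE), 0.559 of the DMSO level. With JQ1 it was 0.31 ± 0.17, and 0.077 ± 0.14 without JQ1 replicate 1, so that library decides the size of the JQ1 value.

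TUBB4B, a beta isotype present in most tissues and in cilia, was above its control with JQ1 and below it with pinometostat. It had 288, 289, 315 and 381 CPM in the E92K libraries, 915, 481, 472 and 490.1 CPM with JQ1, and 174, 228, 229 and 242 CPM with pinometostat, against 349.7, 269.6, 301 and 303 CPM in H2A with DMSO. All JQ1 libraries lay above and all pinometostat libraries below those with DMSO, and the E92K libraries overlapped them. The log2 fold change was 0.95 ± 0.19 with JQ1 (1.93-fold), and 0.63 ± 0.12 (1.54-fold) without JQ1 replicate 1. With pinometostat it was −0.49 ± 0.19.

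The height of TUBB4B in JQ1 replicate 1 depended on the scaling. In deposited TPM, which are scaled to each library's own sum, TUBB4B had 728 in JQ1 replicate 1 and 679, 686 and 733 in the other JQ1 libraries, against 567, 429, 446 and 439.6 in H2A with DMSO. On that scale all 4 JQ1 libraries lay close together and above all DMSO libraries. In JQ1 replicate 1 TUBA1B was at 288 TPM, while JQ1 replicates 2 to 4 had 866 to 1001, and TUBB was at 793 TPM, while they had 1217 to 1394. A share of the summed beta TPM does not change with the scaling of a library. By that share TUBB4B still stood apart, at 42.6% in JQ1 replicate 1 and 29.4% to 30.5% in JQ1 replicates 2 to 4.

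TUBB3, the neuronal beta isotype, was listed at low counts throughout. It had 18, 35, 23 and 12 counts in the E92K libraries, 17, 46, 31 and 59 with JQ1, and 27, 21, 28 and 22 with pinometostat, against 34, 31, 28 and 25 in H2A with DMSO. Scaled, that was 0.743, 1.34, 0.943 and 0.537 CPM in E92K, 1.23, 2.25, 1.60 and 2.75 CPM with JQ1, and 1.21, 0.897, 1.4003 and 0.983 CPM with pinometostat, against 1.28, 1.04, 1.14 and 0.939 CPM with DMSO. In CPM JQ1 replicates 2, 3 and 4 lay above every DMSO library and JQ1 replicate 1 lay within them, so the groups overlapped. In deposited TPM JQ1 replicate 1 had 0.467, below all DMSO libraries (0.650 to 0.987), and JQ1 replicates 2 to 4 had 1.11 to 1.96. The log2 fold change with JQ1 was 0.85 ± 0.29, and 0.97 ± 0.28 without JQ1 replicate 1. It was 0.28 on log2(TPM + 1), where the added 1 is close to the levels themselves. With pinometostat it was 0.025 ± 0.29, an estimate whose sign changed with the setting.

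TUBB, the main beta isotype of dividing cells, had 1174, 1279, 1364 and 1259.8 CPM in the E92K libraries, 1588, 1373, 1456 and 1483 CPM with JQ1, and 839, 1005, 906 and 1024 CPM with pinometostat, against 1344, 1094, 1216 and 1333 CPM in H2A with DMSO. In CPM the JQ1 libraries all lay above and the pinometostat libraries all below those with DMSO. In deposited TPM TUBB had 793, 1217, 1330 and 1394 with JQ1, against 1370, 1093, 1133 and 1217 with DMSO, so those groups overlapped. The log2 fold change was 0.24 ± 0.10 with JQ1 and −0.40 ± 0.10 with pinometostat. With JQ1 it was 0.18 ± 0.10 without JQ1 replicate 1, and −0.051 on log2(TPM + 1). TUBB2B, at 97.2 to 105 CPM with pinometostat against 122 to 141 CPM with DMSO, did not overlap either (log2 fold change −0.38 ± 0.085). Its near copy TUBB2A had 17.4 to 22.6 CPM with pinometostat and 22.2 to 27.8 CPM with DMSO, ranges that overlapped at their edge (−0.34 ± 0.11).

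TUBA1B, the main alpha isotype, had 859.9, 847, 758 and 631 CPM in the E92K libraries, 613, 1162, 1166 and 980.3 CPM with JQ1, and 660.2, 658, 755 and 722 CPM with pinometostat, against 899.7, 917, 931 and 895 CPM in H2A with DMSO. Its DMSO libraries lay close together, and all E92K and all pinometostat libraries lay below them. JQ1 replicate 1 was the lowest of the 16 libraries and the other 3 JQ1 libraries were above every DMSO library. The log2 fold change was −0.38 ± 0.16 with pinometostat. With JQ1 it was 0.11 ± 0.16, and 0.25 ± 0.11 without JQ1 replicate 1.

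The libraries of the other alpha genes overlapped between groups. TUBA1C had 203 to 261 CPM with pinometostat against 253 to 293 CPM with DMSO (log2 fold change −0.28 ± 0.10). TUBA1A had 146 to 171 CPM with pinometostat against 151 to 188 CPM with DMSO (−0.085 ± 0.10). TUBA4A, a minor isotype here, had 10.6 to 14.1 CPM with pinometostat against 13.2 to 15.2 CPM with DMSO (−0.27 ± 0.15). With JQ1 their log2 fold changes were 0.14 ± 0.10 for TUBA1C, 0.19 ± 0.10 for TUBA1A and 0.11 ± 0.15 for TUBA4A. Without JQ1 replicate 1 they were 0.094 ± 0.096 for TUBA1C, 0.20 ± 0.097 for TUBA1A and −0.062 ± 0.14 for TUBA4A.

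**Figure D2:**
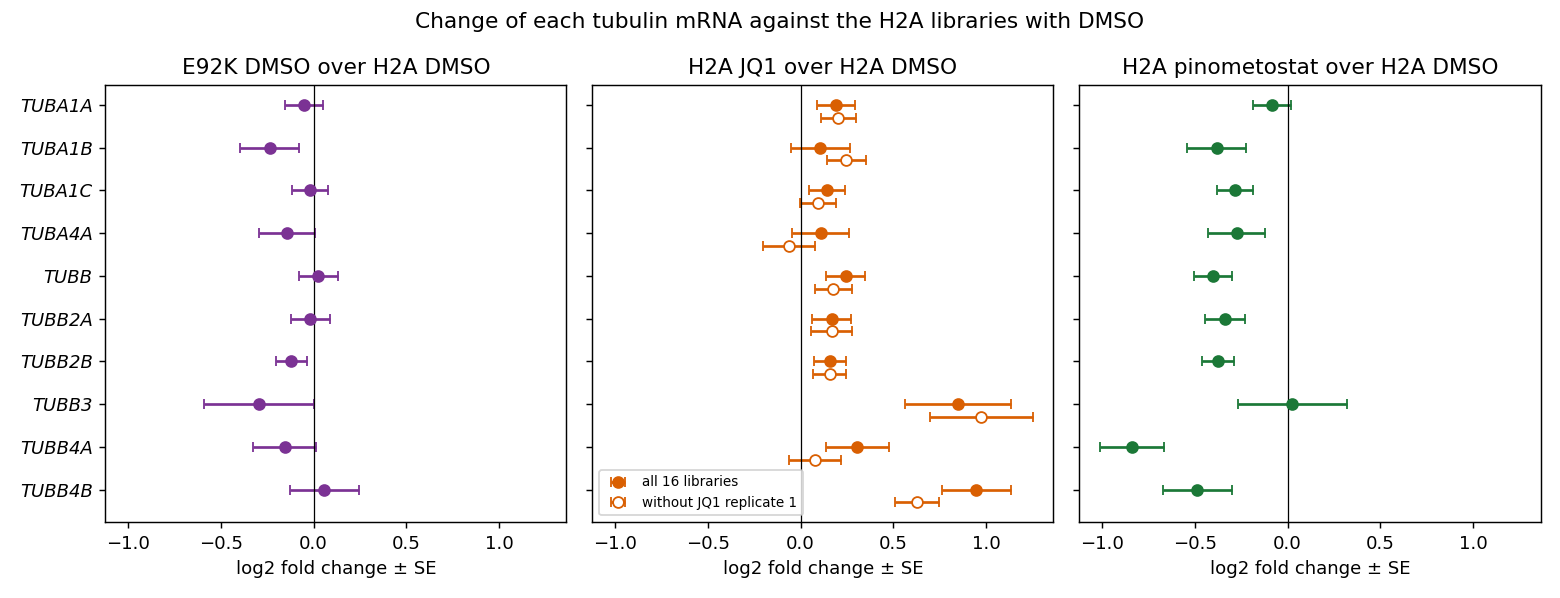
Log2 fold change ± SE (x axis) of each tubulin gene in E92K, JQ1 and pinometostat libraries over the H2A libraries with DMSO, 4 against 4; open circles leave out JQ1 replicate 1. With pinometostat 9 of 10 points lie below 0, with TUBB4A lowest at −0.84, and with JQ1 TUBB3 and TUBB4B stand apart at 0.85 and 0.95.

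With pinometostat, then, 9 of the 10 log2 fold changes were negative and their median was −0.36, against a median of 0.026 over the 17306 genes tested. The pinometostat libraries lay wholly below those with DMSO for 5 members (TUBA1B, TUBB, TUBB2B, TUBB4A and TUBB4B), where 13.5% of all tested genes did, and wholly above for none, where 12.7% did. All 10 members were below the median of all genes under TMM, DESeq2 size factors, library size and upper quartile scaling, and 9 of 10 were on log2(TPM + 1), where TUBB3 was above it. Neuronal markers, which several beta isotypes accompany in brain, summed to 152 to 211 TPM with pinometostat and 208 to 329 TPM with DMSO. Kidney developmental markers summed to 84.4 to 97.7 TPM with pinometostat and 121 to 149.6 TPM with DMSO, with no overlap. The part of either marker list in these values was not tested.

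With JQ1 all 10 log2 fold changes were positive under TMM, with a median of 0.18, but only 5 were positive with library size alone and 2, TUBB3 and TUBB4B, on log2(TPM + 1). Those scalings moved the median of all genes to −0.14 and −0.21, where it was 0.042 under TMM, and relative to that median 10 and 9 members lay above it. In CPM the JQ1 libraries lay wholly above those with DMSO for 2 members (TUBB and TUBB4B), where 8.26% of all tested genes did, and wholly below for none, where 12.2% did. In deposited TPM the libraries of TUBB overlapped and those of TUBB4B did not. The 2 compounds were given for different times, and both comparisons share the DMSO libraries, so their values are only set side by side.

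**Figure D3:**
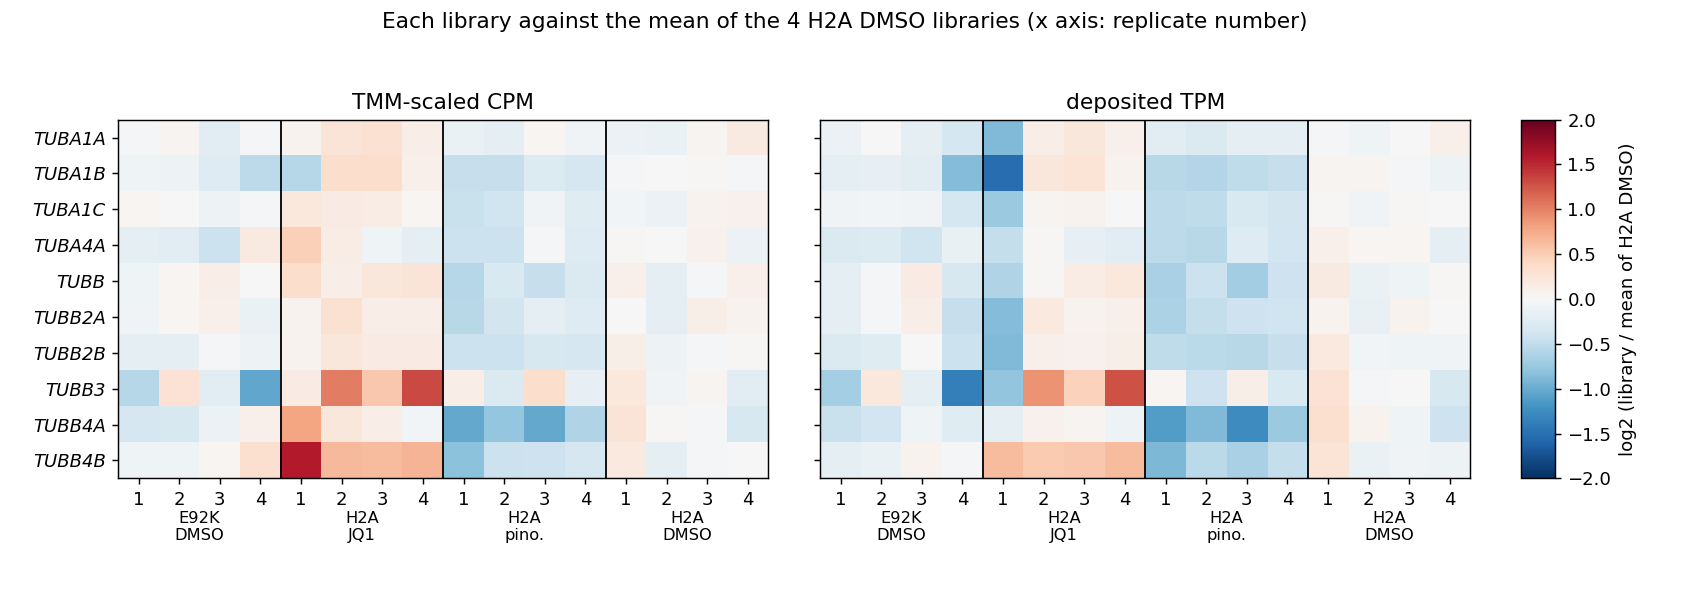
Log2 ratio of each library to the mean of the 4 H2A DMSO libraries (colour), for the 10 tubulin genes (rows) in each library (columns, E92K, JQ1, pinometostat and DMSO), in TMM-scaled CPM on the left and deposited TPM on the right. JQ1 replicate 1 is blue for most genes in TPM and near white or red in CPM, except TUBA1B, which is blue on both scales, while TUBB4B is red in all 4 JQ1 libraries on both scales.

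The comparison of E92K cells did not itself choose the genes. It shares the 4 DMSO libraries with the 2 comparisons that did, so it is not independent of that choice. None of the 10 tubulin mRNAs passed an adjusted p of 0.05 in edgeR's quasi-likelihood test (two-sided, Benjamini-Hochberg over 17306 genes), where 0% of all tested genes did. No member's E92K libraries lay wholly above those with DMSO, where 1.99% of all tested genes did. At an unadjusted p below 0.05 no member passed either, against 7.49% of all tested genes. DESeq2 called 0 members and 4 genes in all. The median log2 fold change of the members was −0.085, with 2 positive and 8 negative, and that of all genes was 0.0012. Without E92K replicate 4 and JQ1 replicate 1, TUBA4A was the only member under the unadjusted threshold (edgeR's quasi-likelihood test, adjusted p = 0.418), as were 2021 of the 17446 genes tested in that fit.

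TUBA1B was the sole member whose E92K libraries lay wholly below those with DMSO, as 3.18% of all tested genes did. It averaged 774 ± 106 CPM in E92K cells and 911 ± 16.3 CPM in H2A cells with DMSO (SD, n = 4 each). The log2 fold change was −0.23 ± 0.16, with a 95% interval of −0.57 to 0.10 and an adjusted p of 0.685 in edgeR's test. It was −0.15 ± 0.086 without the 2 libraries that stand apart. The intervals of the others bound what these libraries can show. For TUBB4A the log2 fold change was −0.16, with an interval of −0.51 to 0.20, and the edgeR adjusted p was 0.786. For TUBB4B it was 0.059, with an interval of −0.33 to 0.45, and the edgeR adjusted p was 0.93. For TUBB3 it was −0.29, with an interval of −0.92 to 0.33, and the edgeR adjusted p was 0.774. Without E92K replicate 4 and JQ1 replicate 1 the log2 fold changes were −0.25 for TUBB4A, −0.034 for TUBB4B and −0.11 for TUBB3.

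The make-up of the tubulin mRNA pool was described as each isotype's share of the summed TPM of its subunit in a library, with no test. Among the 6 beta genes TUBB held 61.4% ± 2.31 in E92K cells, 53.8% ± 4.97 with JQ1 and 62.1% ± 1.401 with pinometostat, against 60.9% ± 1.35 in H2A with DMSO (SD, n = 4 each). TUBB4B held 24.0%, 22.8%, 23.0% and 28.0% in the E92K libraries, 42.6%, 30.5%, 29.4% and 29.9% with JQ1, and 20.8%, 22.7%, 24.2% and 23.3% with pinometostat, against 24.8%, 23.6%, 23.8% and 22.7% in H2A with DMSO. The JQ1 libraries held a larger share of TUBB4B and a smaller share of TUBB than every DMSO library, also when replicate 1 is set aside. TUBB2B held 6.16% to 9.33% with JQ1 and 8.61% to 9.29% in E92K cells, both wholly below the 9.56% to 10.3% with DMSO. Shares of a subunit are parts of 1 sum, so a larger share of TUBB4B lowers the others with no fall in their own mRNA. TUBB4A held 2.33% ± 0.192 with pinometostat and 3.11% ± 0.507 with DMSO, with overlapping libraries.

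Among the 4 alpha genes TUBA1B held 66.4% ± 3.24 in E92K cells, 67.8% ± 6.61 with JQ1 and 66.7% ± 0.623 with pinometostat, against 69.6% ± 1.80 with DMSO. The pinometostat shares, 65.8% to 67.1%, lay just below the DMSO shares, 67.3% to 71.5%. TUBA1A held 15.4% to 16.1% with pinometostat and 12.3% to 14.8% with DMSO, with no overlap. TUBA1C held 17.05% to 20.4% in E92K cells, just above the 15.2% to 17.03% with DMSO. The split between these near copies is uncertain, as given above. TUBA4A held 0.990% ± 0.260 in E92K cells, 1.00% ± 0.435 with JQ1 and 0.985% ± 0.0630 with pinometostat, against 0.956% ± 0.0573 with DMSO. Summed over the subunit, beta mRNA was 1849 ± 218 TPM in E92K cells, 2180 ± 328 TPM with JQ1 and 1332 ± 124 TPM with pinometostat, against 1977 ± 212 TPM with DMSO. Summed alpha mRNA was 982 ± 163, 1121 ± 422 and 861 ± 34.3 TPM in those groups, against 1188 ± 35.6 TPM with DMSO. All 4 pinometostat libraries lay below all DMSO libraries in both sums. The E92K libraries also lay below them in the alpha sum, at 740 to 1091 TPM against 1141 to 1224 TPM, and overlapped them in the beta sum. On log2(TPM + 1) the median of all genes was itself −0.086 with pinometostat and −0.093 in E92K cells. How many of all genes separate in TPM was not counted. JQ1 replicate 1 had the lowest alpha sum of the 16, at 497 TPM.

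**Figure D4:**
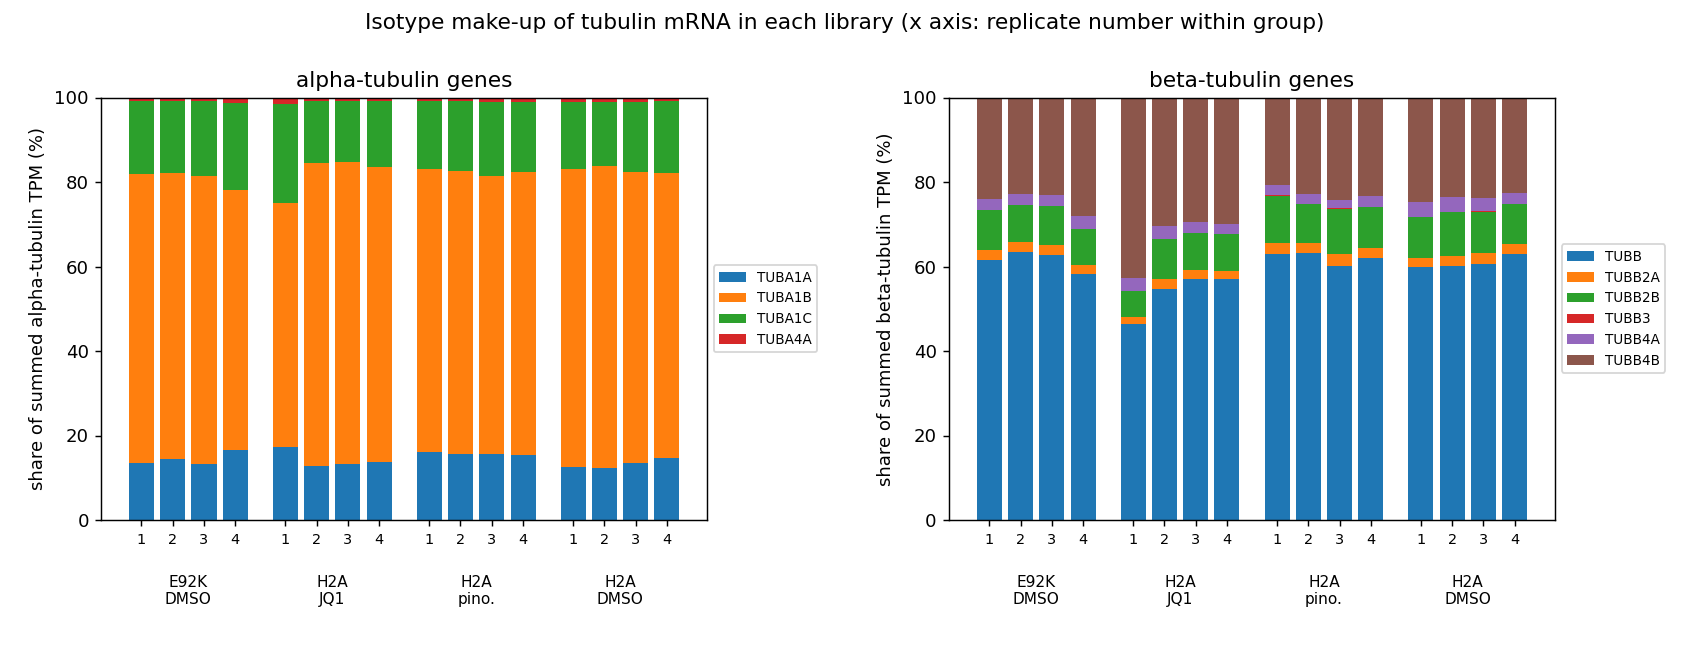
Share of each isotype in the summed TPM of the listed genes of its subunit (stacked bars, %), alpha on the left and beta on the right, for replicates 1 to 4 of E92K DMSO, H2A JQ1, H2A pinometostat and H2A DMSO. TUBB4B takes 29.4% to 42.6% of the mRNA of the listed beta genes in the JQ1 libraries and 22.7% to 24.8% in those with DMSO.

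The 3 genes whose profile over the 16 libraries lay nearest to that of TUBB4A were SCAF1, RRBP1 and EEF1A2. Their root-mean-square distances, in log2 CPM centred on each gene's mean, were 0.082, 0.12 and 0.13 among 11497 genes with at least 5 CPM, where TUBB4A itself varied with an SD of 0.48. SCAF1 averaged 83.7 ± 15.1 CPM with pinometostat and 139.7 ± 29.2 CPM with DMSO. For TUBB3 the nearest were ZNF536, DUSP1 and CNNM4, at distances of 0.26, 0.26 and 0.27, where TUBB3 varied with an SD of 0.53. CNNM4 averaged 46.5 ± 16.5 CPM with JQ1 and 26.8 ± 2.99 CPM with DMSO. The libraries are shared by all these profiles, and the TUBB3 profile rests on the low counts given above.

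Promoter sequence was read for all 10 members, at 15 start sites in RefSeq (GRCh38.p14), each from 250 bases before to 50 after the start. TUBB4B is shown because it differed with both compounds, and capitals mark CCAAT or its reverse complement (chr9:137241037-137241336, plus strand).
TUBB4B: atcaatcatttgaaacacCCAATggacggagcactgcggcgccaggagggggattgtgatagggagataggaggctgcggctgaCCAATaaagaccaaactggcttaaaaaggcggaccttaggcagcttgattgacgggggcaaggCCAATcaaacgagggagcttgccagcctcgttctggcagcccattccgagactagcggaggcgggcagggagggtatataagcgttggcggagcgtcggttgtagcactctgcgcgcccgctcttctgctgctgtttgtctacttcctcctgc
This window held 3 CCAAT boxes and no GC box (GGGCGG). TUBB4A is shown beside it, at the downstream of its 2 start sites, where capitals mark GC boxes on either strand (chr19:6502260-6502559, minus strand).
TUBB4A: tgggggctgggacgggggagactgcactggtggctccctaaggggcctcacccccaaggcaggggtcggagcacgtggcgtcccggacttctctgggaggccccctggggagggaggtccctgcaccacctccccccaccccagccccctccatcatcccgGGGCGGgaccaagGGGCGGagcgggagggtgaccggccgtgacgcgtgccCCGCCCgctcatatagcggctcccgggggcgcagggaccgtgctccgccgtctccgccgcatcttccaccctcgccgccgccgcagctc
This window held 3 GC boxes and no CCAAT box, while the window of the upstream TUBB4A start site (chr19:6502799-6503098, minus strand) held 2 CCAAT boxes and 1 GC box. Counted on both strands, CCAAT was found in 9 of the 15 member windows and in 34.6% of all 35116 promoter windows of that length, and GGGCGG in 10 of 15 and in 45.0%. CACGTG was found in 3 of 15 and in 7.26%, and TATAAA in 1 of 15 and in 11.5%. Some windows of a gene overlap, and a match is only a match of letters.

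The rest of the microtubule pathway was read from 6 gene lists, in edgeR's quasi-likelihood test with Benjamini-Hochberg adjustment over all 17306 genes. In E92K cells none of the lists held a gene with an adjusted p below 0.05. Over all tested genes 17.6% were called with JQ1 (7.16% higher and 10.4% lower) and 8.2% with pinometostat (3.62% higher and 4.58% lower). Below, a call is followed by how many of the 8 fits that leave out 1 library of the comparison kept it. For pinometostat all 8 of those fits still held JQ1 replicate 1 and E92K replicate 4 in the shared estimate of spread. The fit without these 2 libraries was chosen after seeing the data, and it called more genes in all. With pinometostat it called 4782 of 17446 genes (2252 higher and 2530 lower). With JQ1 it called 4196 (1780 higher and 2416 lower). List counts from that fit are to be read beside these, and a larger count there is no result about a list. Beside those fits stand other scalings, filters and tests, 19 alternatives in all for a gene called with JQ1 and 20 for one called with pinometostat. The rises with JQ1 depended on the scaling: on log2(TPM + 1) none of the genes of these 6 lists rose.

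Gamma-tubulin, which nucleates microtubules, moved with both compounds. TUBG1 averaged 218 ± 32.0 CPM with JQ1 and 131 ± 3.56 CPM with pinometostat, against 169 ± 4.01 CPM with DMSO (SD, n = 4 each). It rose by 0.37 ± 0.10 on the log2 scale with JQ1 (edgeR adjusted p = 0.0172, kept in 7 of 8 fits and lost without JQ1 replicate 1) and fell by 0.37 ± 0.10 with pinometostat (edgeR adjusted p = 0.0327, kept in 1 of 8). TUBGCP2, a subunit of the ring complex that holds gamma-tubulin, fell to 81.8 ± 3.94 CPM with pinometostat, against 109 ± 5.31 CPM with DMSO (log2 fold change −0.41 ± 0.083, edgeR adjusted p = 0.00996, kept in all 8). TUBG2, the second gamma-tubulin gene, rose by 0.44 ± 0.12 with JQ1 (edgeR adjusted p = 0.0206, kept in 6 of 8). Over all 19 alternatives TUBG1 was called with JQ1 in 12 (log2 fold change down to 0.059, adjusted p up to 0.76) and TUBG2 in 11, and over 20 alternatives TUBG1 was called with pinometostat in 10 and TUBGCP2 in 17. Of the 11 genes of the ring complex, 2 rose and none fell with JQ1 under TMM. That direction turned with the scaling, since none rose and 2 fell with library size alone and with upper quartile scaling, and none passed on log2(TPM + 1). With pinometostat none rose and 2 fell. Without JQ1 replicate 1 and E92K replicate 4, 1 rose and 2 fell with pinometostat. There TUBG1 was at −0.38 (edgeR adjusted p = 0.000564).

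Of the 13 other tubulin genes, 6 were tested. With JQ1, 2 rose (TUBG1 and TUBG2) and 1 fell: TUBD1, the centriolar delta-tubulin, had 12.3 ± 1.81 CPM with JQ1 and 19.9 ± 4.59 CPM with DMSO (log2 fold change −0.70 ± 0.15, edgeR adjusted p = 0.00372, kept in all 8). With pinometostat TUBG1 alone passed. With library size alone, upper quartile scaling or log2(TPM + 1), none rose with JQ1, and TUBD1 was called in all 19 alternatives. TUBB6, a further beta isotype outside the 10, did not pass in any comparison over all 16 libraries. It averaged 97.2 ± 4.69 CPM in E92K cells, 112 ± 10.4 CPM with JQ1 and 85.5 ± 11.6 CPM with pinometostat, against 103 ± 6.77 CPM with DMSO. All pinometostat libraries lay below those with DMSO (log2 fold change −0.26 ± 0.11, edgeR adjusted p = 0.133), and without JQ1 replicate 1 and E92K replicate 4 it passed (−0.27, edgeR adjusted p = 0.0297). Without those libraries 2 of the 6 rose and 2 fell with pinometostat.

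Tubulin folding uses prefoldin, the CCT chaperonin and the cofactors TBCA to TBCE, and 19 of 20 listed genes were tested. With JQ1, 2 rose and none fell. TBCC, which stimulates GTP hydrolysis in the last folding step, had 38.3 ± 10.4 CPM with JQ1 and 25.7 ± 2.31 CPM with DMSO (0.57 ± 0.15, edgeR adjusted p = 0.0141, kept in all 8 and in 16 of 19 alternatives). Without JQ1 replicate 1 the TBCC value was 0.34, and without it and E92K replicate 4 it was 0.35. TBCB, an alpha-tubulin cofactor, was called at an edgeR adjusted p of 0.0429 and kept in 2 of 8 fits and in 4 of 19 alternatives. With pinometostat 1 rose and 1 fell. TBCD, a beta-tubulin cofactor, had 52.1 ± 6.04 CPM with pinometostat and 71.2 ± 8.45 CPM with DMSO (−0.45 ± 0.12, edgeR adjusted p = 0.031, kept in 3 of 8), and PFDN5, a prefoldin subunit, rose by 0.60 ± 0.18 (edgeR adjusted p = 0.0498, kept in 0 of 8). Without JQ1 replicate 1 and E92K replicate 4, 4 rose and 2 fell with pinometostat. There TBCD was at −0.46 (edgeR adjusted p = 0.00384) and PFDN5 at 0.59 (edgeR adjusted p = 0.000278).

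The autoregulation list held TTC5, SCAPER and 10 CCR4-NOT subunits. With JQ1 none rose and 2 fell. CNOT9 had 68.2 ± 5.95 CPM with JQ1 and 88.5 ± 2.92 CPM with DMSO (−0.38 ± 0.085, edgeR adjusted p = 0.00468). CNOT6L, a deadenylase subunit, had 15.8 ± 2.02 CPM with JQ1 and 24.0 ± 2.15 CPM with DMSO (−0.60 ± 0.14, edgeR adjusted p = 0.00579). Both were kept in all 8 fits and in all 19 alternatives. With pinometostat none of the 12 passed, and 2 fell without JQ1 replicate 1 and E92K replicate 4.

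Of the enzymes that modify tubulin, 21 of 22 were tested. With JQ1, 3 rose and none fell under TMM. None rose with library size alone or on log2(TPM + 1), and 1 rose with upper quartile scaling, with no filter and with a replicate block. HDAC6, the tubulin deacetylase, had 72.7 ± 4.80 CPM with JQ1 and 53.8 ± 7.55 CPM with DMSO (0.43 ± 0.12, edgeR adjusted p = 0.0156, kept in 5 of 8 and in 11 of 19 alternatives). The ligases TTLL5 and TTLL3 were called at edgeR adjusted p-values of 0.0388 and 0.0426, were kept in 1 and 3 of 8 fits, and both were lost without JQ1 replicate 1. With pinometostat none passed, and without JQ1 replicate 1 and E92K replicate 4, 2 rose and 5 fell.

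Of the microtubule-associated proteins, 23 of 26 were tested, and with pinometostat none rose and 6 fell, with a median of −0.22 over the list. MAP1S, a microtubule stabiliser, had 33.5 ± 6.02 CPM with pinometostat and 58.7 ± 10.5 CPM with DMSO (−0.81 ± 0.17, edgeR adjusted p = 0.0107, kept in all 8). MAP7D1 had 95.1 ± 6.85 and 133 ± 6.47 CPM in the same groups (−0.48 ± 0.11, edgeR adjusted p = 0.0151, kept in 6 of 8). KIF2C, a kinesin that depolymerises microtubule ends, had 64.1 ± 1.76 and 85.7 ± 7.33 CPM (−0.42 ± 0.095, edgeR adjusted p = 0.0156, kept in 7 of 8). MAP4 had 169.9 ± 16.7 and 242 ± 36.0 CPM (−0.51 ± 0.14, edgeR adjusted p = 0.0296, kept in 2 of 8). MAPT, the tau gene, was also called and was kept in 1 of 8. On log2(TPM + 1) the list held 1 fall and with library size alone 3. Without DMSO replicate 1 it held 1 call, MAP1S, and without JQ1 replicate 1 and E92K replicate 4 it held 1 rise and 10 falls. In that last fit MAP4 was at −0.52 (edgeR adjusted p = 0.000958) and MAPT at −0.44 (edgeR adjusted p = 0.00887).

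With JQ1, 1 of these 23 rose and 1 fell. MAP1S, which fell with pinometostat, had 100.2 ± 22.0 CPM with JQ1 and 58.7 ± 10.5 CPM with DMSO (0.77 ± 0.17, edgeR adjusted p = 0.00316, kept in all 8 and in 17 of 19 alternatives, but not on log2(TPM + 1)). KATNA1, the catalytic subunit of katanin, fell by 0.37 ± 0.11 (edgeR adjusted p = 0.0269, kept in 5 of 8). Without JQ1 replicate 1 and E92K replicate 4, 5 rose and 1 fell.

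Markers of other cell types moved beside these genes. Of 10 tested neuronal markers, 1 rose with JQ1, NEFM, a neurofilament subunit (1.01 ± 0.28, edgeR adjusted p = 0.0184, kept in 5 of 8). It was lost without JQ1 replicate 1, where it was at 0.51, and without DMSO replicate 2 or 4 (edgeR adjusted p up to 0.0638). It was at 0.52 without JQ1 replicate 1 and E92K replicate 4 (edgeR adjusted p = 0.0324). With pinometostat none of the 10 passed, and 5 fell without those libraries. The neuronal markers summed to 210.2 to 299.7 TPM in E92K cells, 286 to 336 TPM with JQ1 and 152 to 211 TPM with pinometostat, against 208 to 329 TPM with DMSO. Of 7 tested kidney developmental markers, 7 fell with JQ1, with a median of −0.85. GATA3, EYA1, SIX2 and WT1 were kept in all 8 fits, PAX2 in 1 and LHX1 in 2. With pinometostat none of the 7 passed, with a median of −0.33, and 5 fell without JQ1 replicate 1 and E92K replicate 4. Their part in the tubulin values was not tested.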

How the data were processed

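Total RNA of HEK293T cells was sequenced in 16 samples, 4 in each of 4 groups, grouped by their titles and treatment labels. The treatment text gives pinometostat in millimolar, and the 2.5 µM of the sample field was used. The authors deposited raw whole counts of reads per gene, a file per library and a joint table, identical in 920000 of 920000 cells. The deposited TPM equal counts divided by exonic length and scaled per library, within 0.001 in all cells. The sources used here name no aligner, counter, strand setting or build. All 10 members had the coordinates of GENCODE release 29 (GRCh38), as did 96.3% of shared genes. Of 141 list members, 140 matched by symbol. Replicate libraries differed beyond sampling noise (smallest chi-square per degree of freedom 3.54).

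Genes passing filterByExpr (minimum count 10, minimum total 15) were scaled by TMM and fitted over all 16 libraries with edgeR 4.0.16 (R 4.3.3), quasi-likelihood, 12 residual degrees of freedom. The standard error is the log2 fold change divided by the square root of F. The fit was checked on simulated data. Alternatives were DESeq2 1.42.0, limma 3.58.1 on log2(TPM + 1) and log2(TPM + 0.1), other scalings and filters, a replicate block, the 8 libraries of both groups alone and each library left out. The fits without JQ1 replicate 1, and without it and E92K replicate 4, were chosen after seeing the data. Coding sequences were aligned with MAFFT 7.526. Members and lists were chosen with earlier results of these data known. The named genes are all members, up to 4 genes of each list per comparison (lowest adjusted p, below 0.05), and the 3 nearest profiles of TUBB4A and TUBB3; further list members are named to account for a count. Some genes and sequences that fall under these rules are not reported here.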

Additional observations from a re-analysis of the deposited data

Results flagged for a closer look

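TUBB4B in JQ1 replicate 1 stood far from the other libraries of its group, at 915 CPM against 472 to 490.1 CPM in the other 3. Its gap to the nearest was 0.959 of the group's range, above Dixon's critical value for 4 samples. It was the only such library among 40 combinations of member and group. Chance alone would flag about 1 in 20 of such combinations, so a single flag is no more than chance gives. In deposited TPM the same library had 728, among 679 to 733 in the other 3. Its share of the summed beta TPM was 42.6%, against 29.4% to 30.5% in them. The library also had 16.5% of its counts in mitochondrial genes and a TMM factor of 0.777, where the other 15 libraries had 0.961 to 1.09. Over all genes it differed from the other JQ1 libraries at a chi-square per degree of freedom of 189 to 217. Among those others that value was 3.69 to 10.1. The part of these in the TUBB4B value was not tested.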

How the results depend on the processing

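No tubulin gene passed in E92K cells under any of 20 alternatives. Genes called there numbered 0, and 4 with DESeq2, 4 with no filter, 4 without JQ1 replicate 1, 3 without JQ1 replicate 1 and E92K replicate 4, and 0 to 1 with 1 library of the groups compared left out. With JQ1 3044 genes were called (40.7% higher), 1872 (27.0% higher) in the 8 libraries alone and 2216 to 3207 with a library left out. The higher share was 14.3% with library size alone, 27.4% with upper quartile, 8.77% on log2(TPM + 1) and 8.29% on log2(TPM + 0.1). With pinometostat 1419 were called (44.1% higher): 2348 with DESeq2, 457 (15.1%) on log2(TPM + 1), 403 (11.4%) on log2(TPM + 0.1), 4782 without JQ1 replicate 1 and E92K replicate 4, 3701 without JQ1 replicate 1, and 4610 in the 8 libraries alone. With a library left out the count ran from 283, without DMSO replicate 1, to 1546; the share higher was 32.6% with library size alone and 57.2% with upper quartile. The cause was not tested.

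No pairing by replicate number was assumed. Same-numbered deviations correlated at −0.358 to 0.250, which cannot decide whether the numbers pair the samples. A replicate block gave 0, 2363 and 534 calls for E92K, JQ1 and pinometostat. Most samples correlated best with a number other than their own.

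In E92K cells 5 members had a log2 fold change near 0 that changed sign. Leaving out 1 library gave −0.10 to 0.010 for TUBA1A, −0.063 to 0.012 for TUBA1C, −0.038 to 0.059 for TUBB, −0.085 to 0.024 for TUBB2A and −0.060 to 0.13 for TUBB4B. TUBB was at −0.0069 with library size alone, −0.086 on log2(TPM + 1) and −0.086 on log2(TPM + 0.1). TUBB4B was at −0.059 on log2(TPM + 1), −0.059 on log2(TPM + 0.1) and −0.034 without JQ1 replicate 1 and E92K replicate 4, where TUBB2A was at 0.026. With pinometostat 9 members kept a negative sign in all 20 alternatives, and TUBB3 changed sign in 8 of 19. At 12 to 59 counts a library, depth limits TUBB3 most.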
